A study of Mus musculus with 2 samples.

Results

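The macrophages of newborn mouse ureter were examined here as single nuclei, chosen by their own RNA from 2 libraries. A nucleus was taken when it had a UMI (a unique molecular identifier, which counts captured RNA molecules) of at least 2 of the 10 genes Csf1r, Mrc1, F13a1, C1qa, C1qb, C1qc, Adgre1, Dock2, Ptprc and Cx3cr1, called the rule genes below. It could show no more than 1 of the endothelial genes Ptprb, Pecam1 and Emcn and no more than 2 of 8 epithelial genes (Cdh1, Epcam, Grhl2, Elf3, Esrp1, Macc1, Ehf and Myo5b). Of 14380 nuclei that passed filters of 300 genes and 5% mitochondrial RNA, out of 14590 deposited, 119 met it, 80 of 5491 in DNp63cKO and 39 of 8889 in control. The DNp63cKO ureters came from 14 mice with the alleles Pax2-cre/+, DNp63fl/fl and R26mTmG/+, and the control ureters from 13 mice whose genotype the labels give as wt. All mice were at postnatal day 0, and flash-frozen tissue was used to make nuclei for a Singleron microwell kit. DNp63cKO mice lack the ΔN form of p63, a transcription factor of basal epithelial cells, where the Pax2-cre driver has acted. Pax2 is active in the nephric duct lineage, from which the ureter epithelium grows. R26mTmG is a reporter that switches its fluorescent protein after cre activity. Because the control label reads wt, the driver and the reporter may differ between the pools along with the floxed alleles, and these cannot be told apart. Tissue of all mice of a genotype was pooled and 1 library was made per pool, so no difference between the genotypes has a replicate check, and every interval printed here covers counting error only.

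Macrophages are phagocytes that settle in tissues before birth, depend on CSF1 signalling through the receptor CSF1R, and clear dying cells, old red blood cells and debris. Those along vessels and in connective tissue of the mouse typically carry the mannose receptor MRC1, the hyaluronan receptor LYVE1 and the haemoglobin receptor CD163, and little MHC class II early in life. They also make complement C1q, factor XIII and chemokines, the small secreted proteins that attract other white blood cells.

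The transcription factor PU.1, needed by all myeloid cells, binds DNA around the ETS-type core GAGGAAG. The promoters of 6 genes that carry the results below are shown for this reason, 3 of genes seen in many of the nuclei (Mrc1, F13a1 and Pf4) and 3 of the genes that picked a small set with another profile (Fcna, Itgam and Ccl6). Each runs from 250 bases before to 50 bases after a RefSeq start in GRCm38.p6, 5′ to 3′ on the strand of the gene, and capitals mark GAGGAAG or its complement CTTCCTC.

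Mrc1, chr2:14229164-14229463, plus strand: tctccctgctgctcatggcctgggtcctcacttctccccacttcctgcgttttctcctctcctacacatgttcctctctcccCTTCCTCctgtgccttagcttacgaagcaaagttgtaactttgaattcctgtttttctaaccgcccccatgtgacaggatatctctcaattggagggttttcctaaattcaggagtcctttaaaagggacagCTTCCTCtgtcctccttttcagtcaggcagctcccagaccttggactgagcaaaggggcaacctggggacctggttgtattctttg

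F13a1, chr13:37050195-37050494, minus strand: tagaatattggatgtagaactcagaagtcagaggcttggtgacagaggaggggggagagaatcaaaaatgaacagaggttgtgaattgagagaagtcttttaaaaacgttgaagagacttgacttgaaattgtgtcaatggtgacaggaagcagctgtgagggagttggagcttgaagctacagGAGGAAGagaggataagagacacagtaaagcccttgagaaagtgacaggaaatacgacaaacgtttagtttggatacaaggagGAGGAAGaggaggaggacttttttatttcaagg

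Pf4, chr5:90772185-90772484, plus strand: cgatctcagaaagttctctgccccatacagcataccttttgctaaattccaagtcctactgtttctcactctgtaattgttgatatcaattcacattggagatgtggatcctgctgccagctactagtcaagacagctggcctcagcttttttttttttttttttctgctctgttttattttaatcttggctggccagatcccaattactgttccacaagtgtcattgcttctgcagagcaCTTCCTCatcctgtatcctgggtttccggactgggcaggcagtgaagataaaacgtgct

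Fcna, chr2:25627925-25628224, minus strand: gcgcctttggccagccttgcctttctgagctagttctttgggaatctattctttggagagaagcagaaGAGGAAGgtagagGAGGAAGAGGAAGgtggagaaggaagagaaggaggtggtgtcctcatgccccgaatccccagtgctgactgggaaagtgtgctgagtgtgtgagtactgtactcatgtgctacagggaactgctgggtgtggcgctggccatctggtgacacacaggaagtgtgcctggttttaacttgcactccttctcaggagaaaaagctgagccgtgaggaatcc

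Itgam, chr7:128062390-128062689, plus strand: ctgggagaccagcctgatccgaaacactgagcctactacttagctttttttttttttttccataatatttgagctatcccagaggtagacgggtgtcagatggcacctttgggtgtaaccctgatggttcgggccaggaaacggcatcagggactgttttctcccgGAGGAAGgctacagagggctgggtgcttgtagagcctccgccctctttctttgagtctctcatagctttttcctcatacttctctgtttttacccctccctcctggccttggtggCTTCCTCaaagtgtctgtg

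Ccl6, chr11:83593038-83593337, minus strand: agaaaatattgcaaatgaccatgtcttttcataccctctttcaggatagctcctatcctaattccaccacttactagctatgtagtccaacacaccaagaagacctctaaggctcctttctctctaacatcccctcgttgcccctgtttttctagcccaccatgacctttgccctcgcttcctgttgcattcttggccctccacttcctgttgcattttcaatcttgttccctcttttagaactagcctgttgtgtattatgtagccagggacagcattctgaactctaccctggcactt

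The Mrc1 window held the motif at -168 and -36 from the gene start, both on the opposite strand, and the Pf4 window at -9 on the opposite strand. The Fcna window held it 3 times on the strand of the gene, at -182, -169 and -163. Itgam had it at -84 on its own strand and at 32 on the other, and this F13a1 start had it at -66 and 18 on its own strand. The Ccl6 window held none, nor did those of Lyz2 and Stab1 or the 3 windows of Apoe, which was seen in 86 of the 119 nuclei. Among 32851 promoter windows of the same length in the RefSeq table, 13.6% held the motif on either strand, and 15.4% of 27025 genes had a window with it. Of the 25 leading macrophage genes described below, 20 had a window and 9 of these (45%) held the motif. Of the rule genes, 7 had a window and 4 held it. A match describes these letters only and says nothing about binding.

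The macrophage share of kept nuclei was 1.46% in DNp63cKO (95% Clopper-Pearson interval 1.16 to 1.81) and 0.439% in control (0.312 to 0.599). Counted among nuclei with 2 or fewer epithelial genes, it was 1.88% of 4264 nuclei in DNp63cKO and 0.601% of 6484 nuclei in control. Nuclei with 4 or more rule genes, an alternative chosen after seeing the data, made up 0.692% in DNp63cKO (0.490 to 0.949) and 0.247% in control (0.155 to 0.374). The DNp63cKO share was above the control share, and the counting intervals did not overlap, in each of these 3 counts. Other non-epithelial nuclei also took more of the DNp63cKO library: the endothelial gate held 193 nuclei in DNp63cKO and 191 in control, and the mesenchymal gate 3536 and 4232, of 5491 and 8889 kept nuclei. How much of the difference lies in nucleus recovery and how much in the tissue was not tested.

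The nuclei differed widely in how firmly they met the rule. Of the DNp63cKO nuclei 29 showed 2 rule genes, 13 showed 3 and 38 showed 4 or more, against 14, 3 and 22 in control. Just outside the rule, 245 DNp63cKO and 173 control nuclei showed 1 rule gene. UMIs of 14 macrophage genes outside the rule, picked after their values were seen and not by rank, were used to describe this edge. They were Apoe, Pf4, Stab1, Lyve1, Cd163, Lyz2, Ctss, Tyrobp, Fcer1g, Laptm5, Hpgds, Ms4a6b, Fcgr3 and Msr1. At least 3 such UMIs were found in 0.815% of nuclei with 0 rule genes, 5.74% with 1, 51.2% with 2, 93.8% with 3 and 98.3% with 4 or more. That is 59 of 60 nuclei with 4 or more rule genes and 22 of 43 nuclei with 2, a description only, since the 14 genes were picked from these same nuclei.

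**Figure D1:**
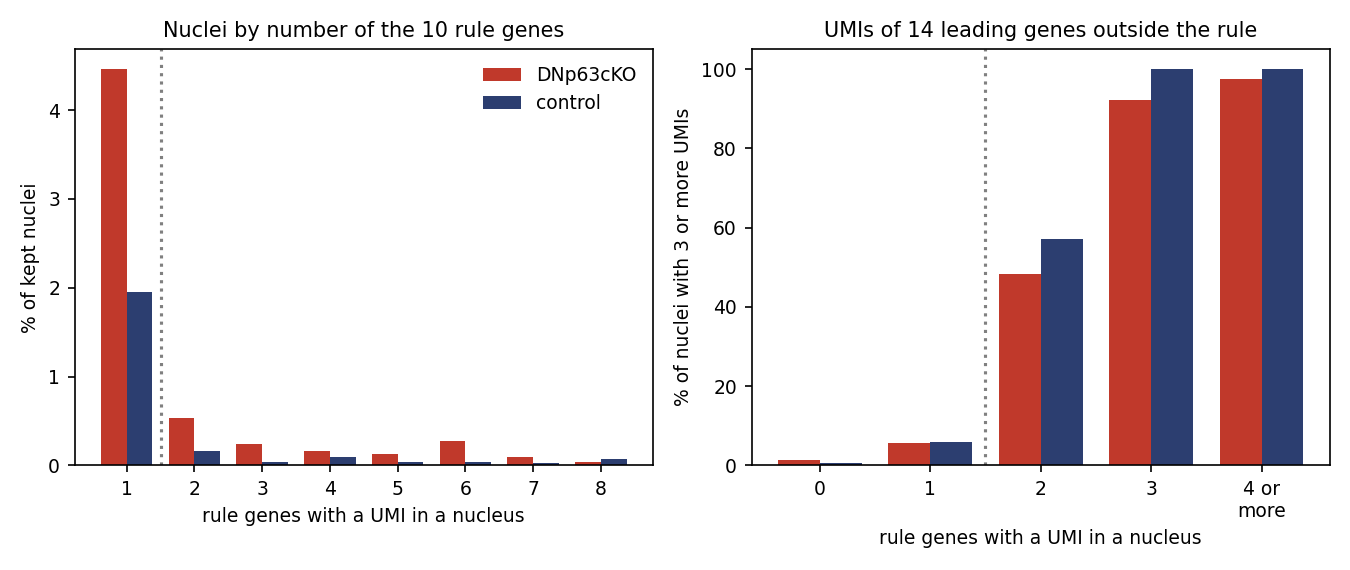
Left, percent of kept nuclei of each library (y axis) with 1 to 8 of the 10 rule genes (x axis). Right, percent of the nuclei in each band (y axis) with 3 or more UMIs of 14 picked macrophage genes outside the rule, by number of rule genes (x axis). The dotted line marks the rule, DNp63cKO is red and control blue, and the right panel steps up from 5.74% at 1 rule gene to 51.2% at 2 in the libraries together.

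Collagen and smooth muscle RNA was high in the nuclei that only just met the rule. The summed level of 10 mesenchymal genes (collagens, Dcn, Lum, Pdgfra and smooth muscle genes) was 24723 CPM (UMIs per 1000000 UMIs of the summed nuclei) in nuclei with 2 rule genes and 26927 CPM with 3, against 9789 CPM with 4 or more and 12976 CPM in nuclei with 0. Of the 119 nuclei, 70 showed 4 or more of these 10 genes. The 15 nuclei with 4000 or more UMIs, 12 in DNp63cKO and 3 in control, held 49.3% of the DNp63cKO macrophage UMIs and 32.6% of the control ones, and 10 of them showed 2 rule genes. Haemoglobin RNA followed the same edge, at 2743 CPM with 2 rule genes and 465 CPM with 4 or more. Whether these are macrophages with RNA of other cells, mesenchymal nuclei with some macrophage RNA or doublets was not tested. Levels in the 60 nuclei with 4 or more rule genes are therefore given beside those of all 119 where they matter. No barcode was shared between the macrophage nuclei of the libraries, against 58 among all nuclei.

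The rule genes themselves, which chose the nuclei, are a description only. Mrc1 (chromosome 2, 14229392 to 14332057 in GRCm38, protein-coding) had a UMI in 73.75% of DNp63cKO and 79.5% of control macrophage nuclei. F13a1, the A subunit of factor XIII, was seen in 44 of 80 DNp63cKO and 25 of 39 control nuclei, and Csf1r in 51.25% of DNp63cKO and 51.3% of control nuclei. At least 1 of the C1q chains (C1qa, C1qb and C1qc, neighbours on chromosome 4) was seen in 59 of 80 DNp63cKO and 27 of 39 control nuclei. Mrc1 and a C1q chain occurred together in 66 of the 119 nuclei, Mrc1 without C1q in 24, C1q without Mrc1 in 20 and neither in 9. Only 2 nuclei, both in control, entered on Dock2 and Ptprc alone, genes that all white blood cells use. Csf1r shares its locus with Hmgxb3, Dock2 with Fam196b and Cx3cr1 with 5 other protein-coding genes. Without the counting strand their UMIs are less certain, and Cx3cr1 had a UMI in 16 nuclei.

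Free RNA in the suspension gives some UMIs to nuclei of any type. Csf1r had a UMI in 51.3% of macrophage nuclei (median 1228 UMIs), against 0.781% in the endothelial gate (1330), 0.644% in the mesenchymal gate (1062) and 1.30% in the epithelial gate (3010.5). Nuclei with 700 or more UMIs were also thinned to 700 UMIs, which left out 22 of the 119 macrophage nuclei. The Csf1r share was then 29.9% in macrophage nuclei and 0.346% in the mesenchymal gate. Csf1r helped to choose the macrophage nuclei, and the other gates allow 1 or fewer rule genes. The direction of this contrast was therefore set in advance, and it is a description only. The urothelial genes Upk1a, Upk1b, Upk2, Upk3a, Psca and Sprr1a, 6 genes that macrophages are not known to use, summed to 4438 CPM in DNp63cKO and 2582 CPM in control macrophage nuclei, against 13239 and 12552 CPM in all kept nuclei of the libraries. The rule genes summed to 53.0 CPM in other nuclei of DNp63cKO and 29.7 CPM in other nuclei of control. Other nuclei are those the rule left over, so these sums are low by selection as well.

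The macrophage nuclei carried RNA of many phagocyte genes in each library, the rule genes among them. Among 3454 genes with 20 or more UMIs in the 119 nuclei, 388 (11.2%) were 2-fold or more higher than in all other nuclei with the libraries pooled, on the log2(CPM + 5) scale used for every log2 ratio below unless stated, and 176 (5.1%) were 2-fold or more lower. Of the 388, 291 were also 2-fold higher in DNp63cKO alone, 330 in control alone and 245 in each, and 61 were 16-fold or more higher. The median gene of the 3454 had a log2 ratio of 0.14. The 388 hold all 10 rule genes, which chose the nuclei, and the 61 hold all of these but Cx3cr1 (3.04). Among the 388 were also 9 fibroblast, 3 smooth muscle and 3 red blood cell list members. Since the nuclei were picked by their RNA, these ratios describe them and are not tested.

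The leading genes outside the rule were those of scavenging, complement, lipid handling and immune signalling. Apoe, the lipid carrier of macrophages, was at 4129 CPM in DNp63cKO against 3829 CPM in control macrophage nuclei, where other nuclei had 85.7 and 49.8 CPM (log2 ratio 5.88). Its level rested on 722 UMIs in 59 DNp63cKO nuclei and 307 UMIs in 27 control nuclei. Lyz2, the lysozyme of phagocytes, was at 1241 CPM in DNp63cKO against 1085 CPM in control macrophage nuclei, where other nuclei had 6.04 and 2.89 CPM. Over the 119 nuclei the intervals of the ratio between the libraries included 1 for Apoe and for Lyz2, but 653 of the 1029 Apoe UMIs and 233 of the 304 Lyz2 UMIs lay in 10 nuclei described below. In those 10, Apoe was at 39000 CPM in DNp63cKO against 19608 CPM in control and Lyz2 at 14614 CPM against 6212 CPM. Pf4 (platelet factor 4, a chemokine that tissue macrophages also make) was at 1424 CPM in DNp63cKO against 549 CPM in control macrophage nuclei. Of the 10 members of the megakaryocyte and platelet list, to which Pf4 also belongs, 6 had 0 UMIs, Itga2b, Gp1bb and Gp5 among them. The scavenger receptors Stab1 (5.36), Cd163 (5.39) and Msr1 (5.05) and the hyaluronan receptor Lyve1 (5.18) had log2 ratios in a narrow range. So did the signalling adaptors Tyrobp (5.33) and Fcer1g (5.17), which pair with Fc and other activating receptors, and Hpgds (5.22) and Ltc4s (5.28), enzymes of prostaglandin and leukotriene synthesis. Of the 25 named genes 9 overlap another annotated gene and 2 a protein-coding one.

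**Figure D2:**
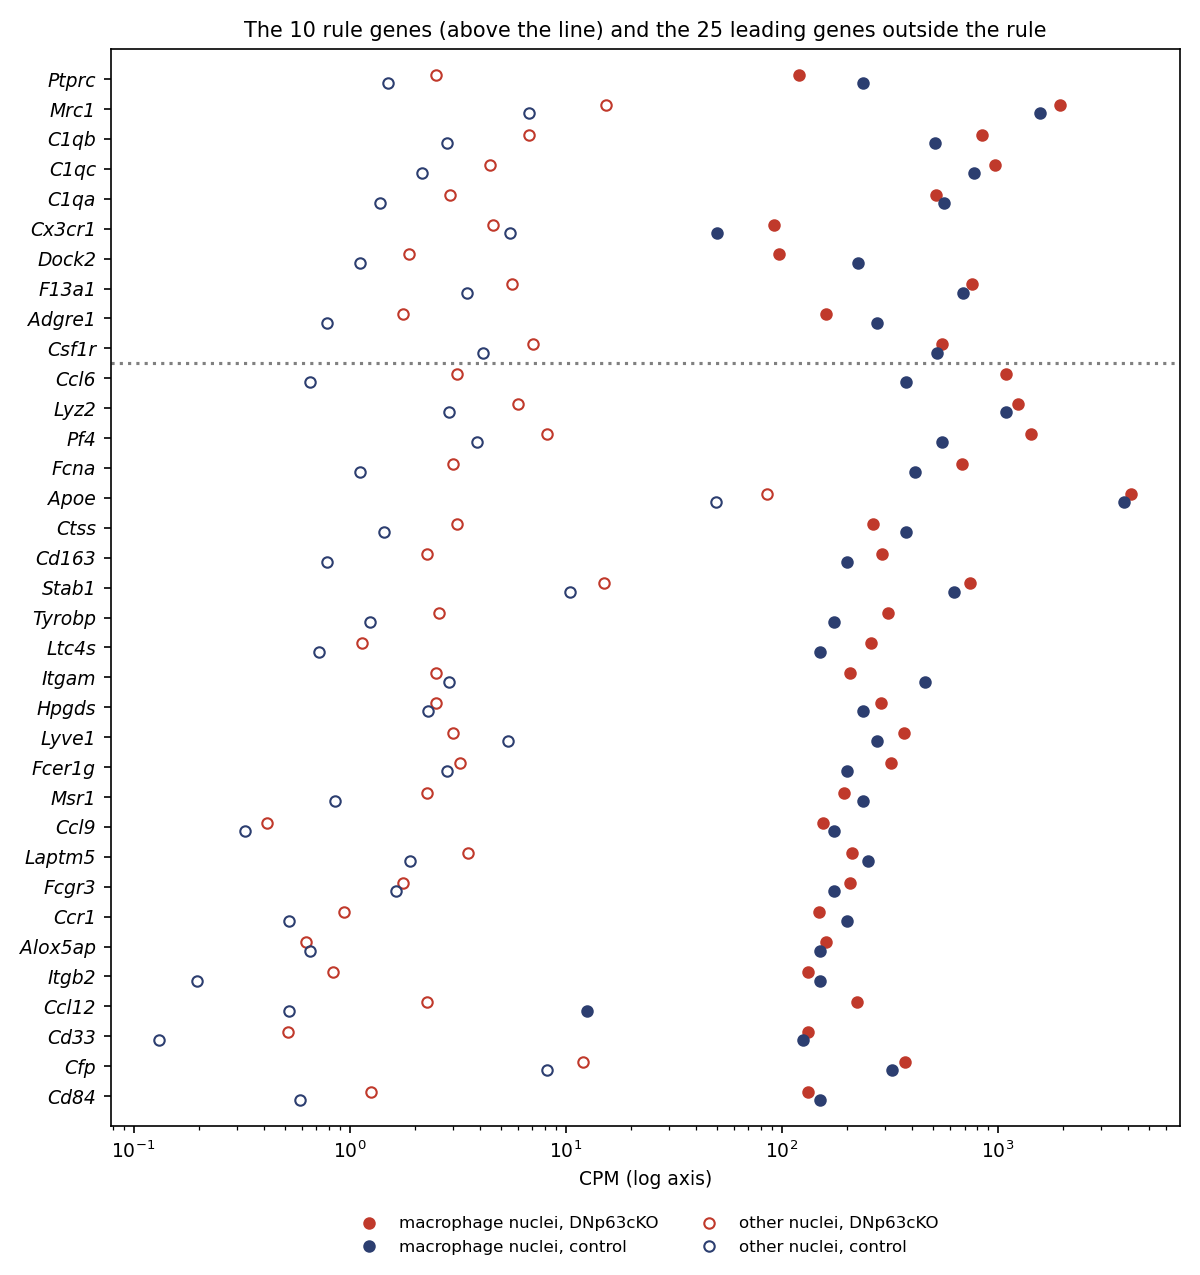
CPM (x axis, log scale) of the 10 rule genes and the 25 leading genes outside the rule in macrophage nuclei (filled) and in all other kept nuclei (open), DNp63cKO red and control blue. Filled points lie to the right of the open ones for every gene, which was set in advance by how nuclei and genes were chosen. The 25 genes had to be higher in macrophage than in other nuclei of each library. For Ccl12 the control macrophage level rests on 1 UMI.

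The gene lists are described by counts, and a listed gene could enter a count by 20 UMIs in the macrophage nuclei alone, so these counts and medians support nothing about a list. Of the resident perivascular-type list 14 of 20 genes had 20 or more UMIs, and these 14 were 2-fold or more higher in macrophage than in other nuclei (11.2% of all genes tested were), with a median log2 ratio of 4.28 against 0.14 for all genes tested. The other 6 members had fewer UMIs, and Cd209g, Vsig4 and Fgf13 had 0 UMIs. Selenop, the selenium carrier, had 143 UMIs in DNp63cKO and 50 in control, and Folr2, a folate receptor, had 16 and 10. Gas6, a bridge to dying cells, and Igf1, a growth factor, were less specific at log2 ratios of 1.97 and 1.62. At least 2 UMIs of this list were found in 68 of 80 DNp63cKO nuclei (85.0%) and 33 of 39 control nuclei (84.6%). Thinned to 700 UMIs, this held for 39 of 65 DNp63cKO nuclei and 18 of 32 control nuclei.

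In the complement and Fc receptor list 11 of 16 genes had 20 or more UMIs and these 11 were 2-fold or more higher (11.2% over all genes tested), with a median log2 ratio of 4.52. The anaphylatoxin receptors C3ar1 (4.48) and C5ar1 (4.52), the inhibitory IgG receptor Fcgr2b (4.48) and the activating ones Fcgr1 (4.02) and Fcgr3 (4.91) were among them. Properdin (Cfp, 4.62) stabilises the complement convertase. Complement C3 itself had 1 UMI, Itgax and Fcgr4 none.

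Genes for breaking down what is taken up were higher as well, with smaller ratios. Beside the 11.2% of all genes tested, 14 of the 18 lysosome list members with 20 or more UMIs were 2-fold or more higher (median 1.82), among them the proteases Ctss (5.42), Lgmn (3.98) and Ctsb (2.91). Psap (0.09), Ctsd (0.30) and Lamp2 (0.70) were not. In the iron and haem list 11 of 12 such members were (median 2.05). Cd163 takes up haemoglobin, Hmox1 (3.66) opens the haem ring, Slc40a1 (2.76) is ferroportin, the iron exporter, and Ftl1 (1.74) and Fth1 (1.55) store iron. The list of uptake receptors for dying cells was mixed, with 8 of 15 such members 2-fold or more higher (median 1.25), among them the rule gene Dock2. Msr1 (5.05), Cd68 (3.59), Cd36 (2.28) and the bridging protein Pros1 (1.64) were among these, while Mertk (0.33), Lrp1 (0.42) and Itgav (-0.01) were near the level of other nuclei. In the 60 nuclei with 4 or more rule genes, Mertk had 19 UMIs and a log2 ratio of 1.24.

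**Figure D3:**
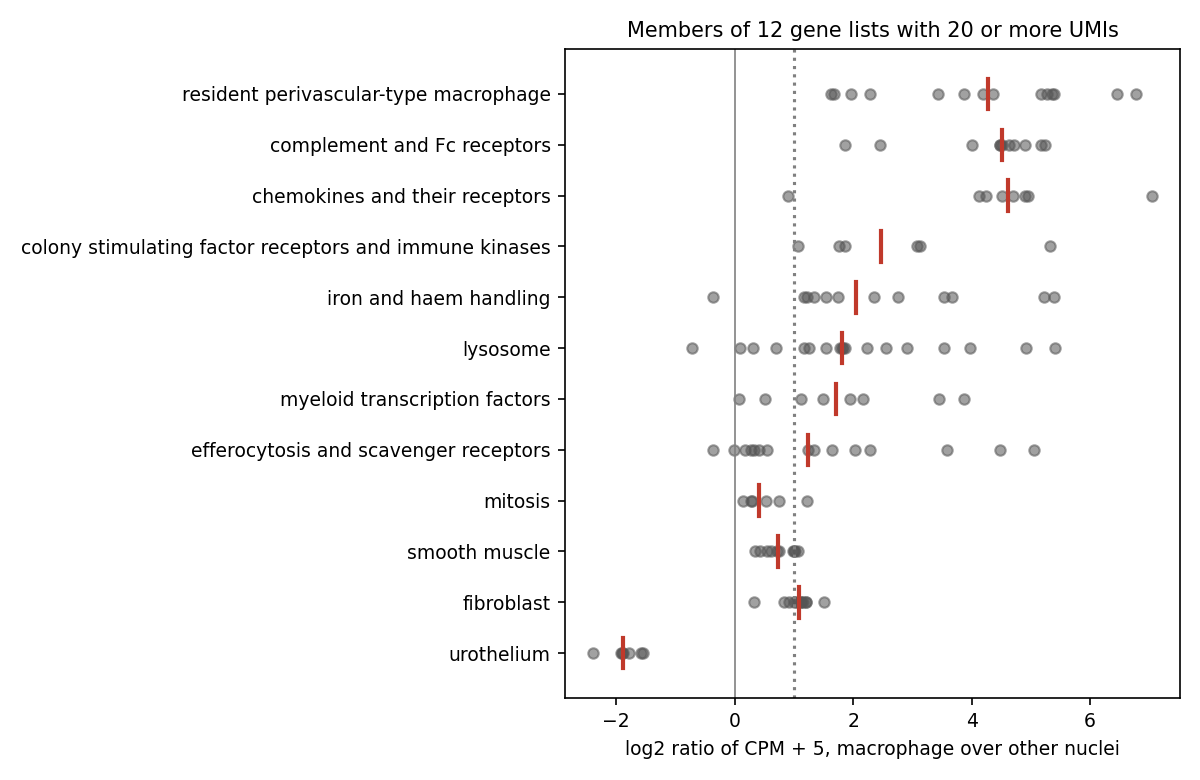
Each point is a gene with 20 or more UMIs in the 119 macrophage nuclei, at its log2 ratio of CPM + 5 between macrophage and all other nuclei (x axis), for 12 gene lists (y axis). Red bars are list medians, the solid line is no difference and the dotted line 2-fold; medians run from 4.61 for the chemokine list to -1.89 for the urothelial list.

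Signalling and regulatory genes of myeloid cells were higher too. Of the 20 genes in the list of colony stimulating factor receptors and immune kinases, which does not hold Csf1r, 6 had 20 or more UMIs, and these were 2-fold or more higher (median 2.47) where 11.2% of all genes tested were. Spi1, which encodes PU.1, had 16 UMIs in DNp63cKO and 4 in control macrophage nuclei (3.87). Maf, a large Maf family factor, had 72 UMIs in DNp63cKO and 42 in control (3.45). Mef2c (1.95), Cebpb (2.16) and Zeb2 (1.49) were higher, and Id2 (0.52) and Mef2a (0.07) were close to other nuclei. Runx1 had 23 UMIs in DNp63cKO and 3 in control.

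MHC class II genes, which present antigen, and several inflammatory cytokines had few or no UMIs. Of the 8 MHC class II genes 6 had 0 UMIs in the 119 nuclei, and the list summed to 0 UMIs in DNp63cKO and 2 in control (1 each of Cd74 and H2-DMb1). Among 80 DNp63cKO nuclei a count of 0 allows a share of up to 4.51% with such a UMI at this depth (Clopper-Pearson), which is no limit on nuclei that express these genes. The dendritic cell list had 6 of 10 members at 0. Il1b had 0 UMIs in DNp63cKO and 1 in control, Tnf 2 and 0, Il6 0 and 1, and Nos2 and Ptgs2 none. Of genes that mark alternative activation, the rule gene Mrc1, Clec10a (3.87), Ccl24 (4.24) and Il4ra (1.86) were 2-fold or more higher, while Retnla, Chil3 and Cd209a had 0 UMIs and Arg1 had 2. The interferon list had 1 tested member, Ifi207 (4.13), with 19 UMIs in DNp63cKO and 6 in control. At these depths a gene at 0 was not detectable, which does not show that it is absent.

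Cell cycle genes stood near the level of other nuclei. The mitosis list had a median log2 ratio of 0.42 and the DNA replication list 0.45, each over 6 tested members. At least 2 mitosis UMIs were found in 36.25% of DNp63cKO and 41.0% of control macrophage nuclei, and in 13.8% and 15.6% after thinning. Mki67, the proliferation marker, had 34 UMIs in DNp63cKO and 9 in control, and 14 and 4 in the nuclei with 4 or more rule genes.

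Lists of other cell types included some with few UMIs and some that were highest at the edge of the rule. The T cell list summed to 5 UMIs in each library, with 9 of 14 members at 0, among them Cd3e, Cd3d, Cd3g, Cd8a and Lck. The fibroblast list had a median log2 ratio of 1.09 over the 119 nuclei, 0.11 over nuclei with 4 or more rule genes and -2.09 over nuclei with 3 or fewer mesenchymal genes, a limit that counts 6 of the 12 genes of this list and so sets its direction in advance. The red blood cell list was at 2.22, -0.01 and -0.06 in the same order. The urothelial list stayed low, at -1.89, -1.81 and -1.70. The resident list was at 4.28, 5.43 and 6.05, and the complement list at 4.52, 5.74 and 5.98, where asking for more rule genes selects nuclei with more macrophage RNA. Both alternatives were chosen after seeing the data.

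Within the 60 nuclei with 4 or more rule genes a small set had a profile of its own. The summed UMIs of Fcna, Itgam and Ccl6 were 3 or fewer in 109 of the 119 macrophage nuclei and 9 or more in the other 10, with nothing between. Fcna is ficolin A, a lectin that starts complement, Itgam the integrin chain CD11b and Ccl6 a chemokine. These 10 nuclei, picked by these 3 genes after their values were seen, were 6 of 80 in DNp63cKO (7.5%, 2.80 to 15.6) and 4 of 39 in control (10.3%, 2.87 to 24.2). All 10 had 4 or more rule genes. They had 1159 to 3472 UMIs each, and none reached 4000.

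The 10 nuclei were set against the 50 others with 4 or more rule genes, and no comparison of them is tested. Apoe was at 29864 CPM in the 10 nuclei and 4028 CPM in the 50, and was seen in 10 of 10 and 41 of 50. Lyz2 was at 10656 and 707 CPM. C1qa was at 3842 and 453 CPM, C1qb at 4162 and 1134 CPM and C1qc at 4985 and 1360 CPM, so all C1q chains were higher in the small set. Mrc1 ran the other way, at 686 CPM in the 10 nuclei and 4775 CPM in the 50, with a UMI in 6 of 10 and 49 of 50. F13a1 (777 and 1574 CPM) and Stab1 (595 and 1520 CPM) were also lower in the small set, and Csf1r (1829 and 1040 CPM), Lyve1 (1098 and 614 CPM) and Cd163 (960 and 440 CPM) were not.

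Several genes were seen in the small set alone or nearly so. Icam2, an adhesion molecule, had 24 UMIs in 6 of the 10 nuclei and 0 in the 50, where 3 UMIs would be 40.0 CPM. Wfdc17 had 74 and 0, Timd4, a receptor for phosphatidylserine on dying cells, 17 and 0, and Klf2, a transcription factor of quiescent leukocytes, 29 and 2. Fn1, fibronectin, had 322 UMIs in all 10 nuclei and 24 UMIs in 7 of the 50. The integrin chain Itgb2, partner of Itgam, had 30 and 2, Emilin2 41 and 6, Alox5ap, which serves leukotriene synthesis, 35 and 5, and transferrin (Trf) 159 and 31. Icam2, Wfdc17, Timd4, Klf2 and Fn1 had UMIs in the small set of each library, with 13 and 11, 70 and 4, 15 and 2, 19 and 10, and 75 and 247 UMIs in DNp63cKO and control. Gata6, the factor that peritoneal macrophages of the mouse depend on, had 1 UMI in the 10 nuclei, where 3 would be 137 CPM, and 7 in the 50. At this depth 1 UMI does not show whether the 10 nuclei use it, so the counts decide nothing about their type.

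Another group of genes had few or no UMIs in the small set. Slc40a1, ferroportin, had 0 UMIs in the 10 nuclei, where 3 would be 137 CPM, and 75 UMIs in 31 of the 50. Dab2, an endocytic adaptor, was at 366 CPM in the 10 and 3214 CPM in the 50, where 46 nuclei showed it. Gas6 had 2 and 56 UMIs, Hpgds 1 and 48, Igf1 0 and 23, Slco2b1 0 and 22, Fcrls 0 and 20, and Rbpj, the DNA-binding partner of Notch, 3 and 133. Maf had 9 and 77 UMIs, Mef2c 3 and 44, and Ms4a6b, whose family members may share reads, 1 and 30. These genes had UMIs in the 50 nuclei of each library, for example 55 in DNp63cKO and 20 in control for Slc40a1 and 176 and 65 for Dab2. Some mesenchymal genes were scarce in the small set as well. Lum had 1 and 30 UMIs in the 10 and the 50 nuclei, Sparc 2 and 55, Col6a1 0 and 24 and Sfrp2 0 and 27. How much of the contrast lies in mesenchymal RNA of the 50 nuclei was not tested. Csf1r, the C1q chains and Apoe had UMIs in both sets. A single DNp63cKO nucleus among the 50 had 15201 UMIs, against medians of 980.5 UMIs in DNp63cKO and 1021.5 in control, so it weighs on summed levels there.

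**Figure D4:**
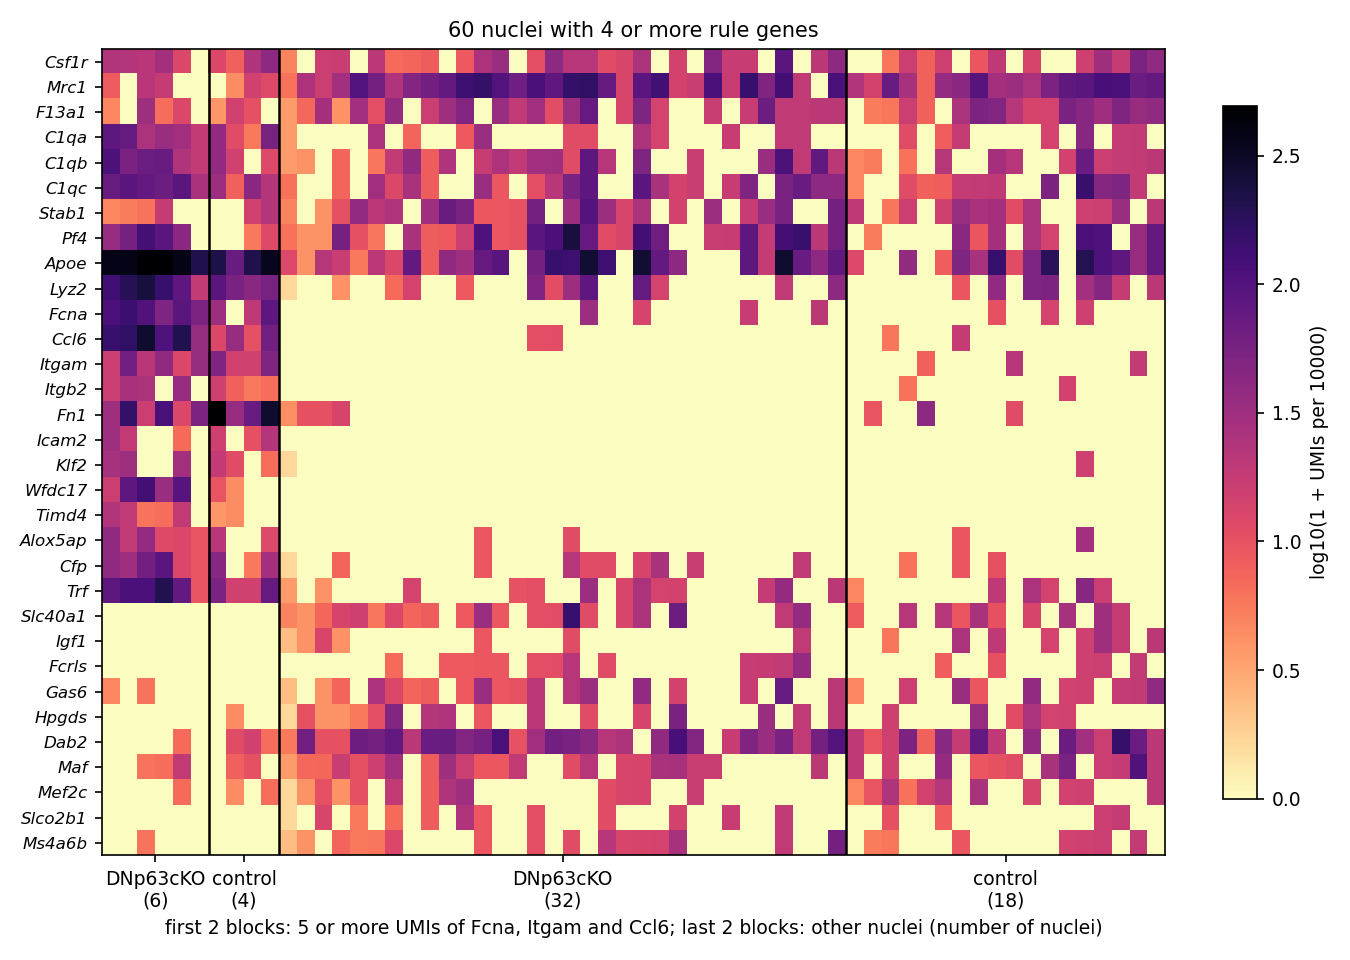
The 60 nuclei with 4 or more rule genes (columns) and 32 genes (rows), coloured by log10(1 + UMIs per 10000 UMIs of the nucleus). The first 2 blocks are the nuclei with 5 or more UMIs of Fcna, Itgam and Ccl6 (6 DNp63cKO, 4 control) and the last 2 the other nuclei (32 DNp63cKO, 18 control); Slc40a1, Igf1 and Fcrls are blank in the first 2 blocks and Icam2, Wfdc17 and Timd4 in the last 2.

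Genes with a 2-fold difference between the genotypes were counted in both directions. Of the 3454 genes, 228 (6.6%) were 2-fold or more higher in DNp63cKO than in control macrophage nuclei and 156 (4.52%) 2-fold or more lower. The median log2 ratio of these 3454 genes was 0.00, and it depends on which genes are counted. Median-of-ratios scaling, over 4652 genes, shifts all ratios by 0.21 on the log2 scale (the median ratio before it was -0.21) and gives 360 higher and 65 lower. Of the 388 genes higher in macrophage nuclei 29 were 2-fold higher and 28 lower in DNp63cKO, beside 228 and 156 of all 3454. Their median of -0.01 was near that of all genes tested. The resident list had 2 of 14 members 2-fold higher (Pf4 and Cd209f) and 0 lower (median 0.40), the complement list 0 higher and 1 lower (Itgam, median 0.15), the lysosome list 0 and 1 (Ctsz, median -0.20) and the iron list 1 and 0 (Hmox1, median 0.33).

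Monocyte-attracting chemokines were among the genes with the highest ratios. Ccl12 had 39 UMIs in 13 DNp63cKO nuclei and 1 UMI in 1 control nucleus, or 223 CPM and 12.5 CPM, and Ccl2 had 24 UMIs in 10 nuclei and 1 UMI in 1 nucleus, or 137 CPM and 12.5 CPM. Ccl7, the third of these monocyte attractants of the CCR2 pathway, had 29 UMIs in 12 nuclei and 2 UMIs in 2 nuclei. A single DNp63cKO nucleus held 14 of the 29 Ccl7 UMIs, and without the nucleus with most of the gene in each library Ccl7 was at 86.3 CPM in DNp63cKO against 12.8 CPM in control. Ccl2 without such nuclei was at 86.8 CPM in DNp63cKO and 0 in control, and Ccl12 at 190 CPM and 0. The log2 ratio of CPM, DNp63cKO over control and without a pseudocount, was 4.16 for Ccl12 (exact interval 1.60 to 9.50), 3.46 for Ccl2 (0.84 to 8.82) and 2.73 for Ccl7 (0.75 to 5.85). At least 1 of these 3 genes was seen in 23 of 80 DNp63cKO nuclei (28.75%, 19.2 to 40.0) and 4 of 39 control nuclei (10.3%, 2.87 to 24.2), and at least 2 in 9 and 0. In nuclei with 4 or more rule genes the counts were 16 of 38 (42.1%, 26.3 to 59.2) in DNp63cKO and 3 of 22 (13.6%, 2.91 to 34.9) in control, with 72 and 3 UMIs. The intervals of these shares overlap, and the genes were named for their high ratios or after their values were seen, so the intervals of their ratios are a description. Reads that fit several of these related genes could be split by the counting, which the sources used here do not describe. Ccl2 also overlaps Gm17268, annotated as protein-coding, so its UMIs are less certain without the counting strand.

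Other nuclei of the DNp63cKO library held these chemokines too, at a far lower level. Ccl2, Ccl7 and Ccl12 summed to 526 CPM in DNp63cKO and 49.9 CPM in control macrophage nuclei, and to 5.21 CPM and 1.05 CPM in the other nuclei of the libraries. In the mesenchymal gate Ccl2 had 16 UMIs in 3536 DNp63cKO nuclei and 0 in 4232 control nuclei. Whether these UMIs are free RNA was not tested. Over the whole chemokine list 4 of 8 tested members were 2-fold higher in DNp63cKO (Ccl2, Ccl6, Ccl7 and Ccl12) and 0 lower, with a median of 0.92. Of all genes tested 6.6% were higher and 4.52% lower. Ccl2, Ccl7 and Ccl12 passed the minimum of 20 UMIs through DNp63cKO alone, with 1, 2 and 1 UMIs in control. The count and the median therefore support nothing about the list. The median was -0.44 without the 10 nuclei picked by Fcna, Itgam and Ccl6, which were picked in part by a list member, whereas Ccl12 was then at 3.66 and Ccl2 at 2.23. The receptor Ccr1 (26 UMIs in DNp63cKO and 16 in control) and the chemokine Ccl9 (27 and 14) did not reach 2-fold in either direction.

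Hmox1, haem oxygenase, had 45 UMIs in 15 DNp63cKO nuclei and 3 UMIs in 3 control nuclei, or 257 and 37.4 CPM, a ratio of 6.88 (2.21 to 34.6). Without the nucleus with most Hmox1 in each library, Hmox1 was at 207 and 25.4 CPM. In nuclei with 4 or more rule genes Hmox1 had 38 UMIs in 12 of 38 nuclei in DNp63cKO and 2 UMIs in 2 of 22 nuclei in control. Haemoglobin RNA, which comes with red blood cells, was at 478 CPM in DNp63cKO against 437 CPM in control in those nuclei. Ftl1, the ferritin light chain, was at 3749 CPM in DNp63cKO against 1405 CPM in control there, and Fth1 at 864 and 312 CPM, while Slc40a1 was at 849 and 624 CPM. Over the 119 nuclei Hmox1 alone of the tested iron list members was 2-fold or more higher in DNp63cKO. Ftl1 and Fth1 fell short of 2-fold in that larger set.

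Wfdc17 had 71 UMIs in DNp63cKO and 4 in control, a ratio of 8.14 (3.04 to 30.7), but 70 of the 71 lay in 5 nuclei of the small set described above. Ccl6 (191 UMIs in 8 DNp63cKO nuclei and 30 in 6 control nuclei) was just as concentrated. Pf4 was more widespread, with 249 UMIs in 45 DNp63cKO nuclei and 44 UMIs in 19 control nuclei, and at 3348 and 1155 CPM in the nuclei with 4 or more rule genes. There Pf4 had a UMI in 34 of 38 DNp63cKO and 12 of 22 control nuclei. Galc, Usp3, Tapt1 and Fam114a2 completed the 8 highest ratios, with 20 to 25 UMIs in DNp63cKO and 1 in control. Their control level of 12.5 CPM was below that of other control nuclei (Galc 52.0, Usp3 102, Tapt1 86.3 and Fam114a2 76.7 CPM), and with the libraries pooled none was 2-fold higher in macrophage than in other nuclei.

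**Figure D5:**
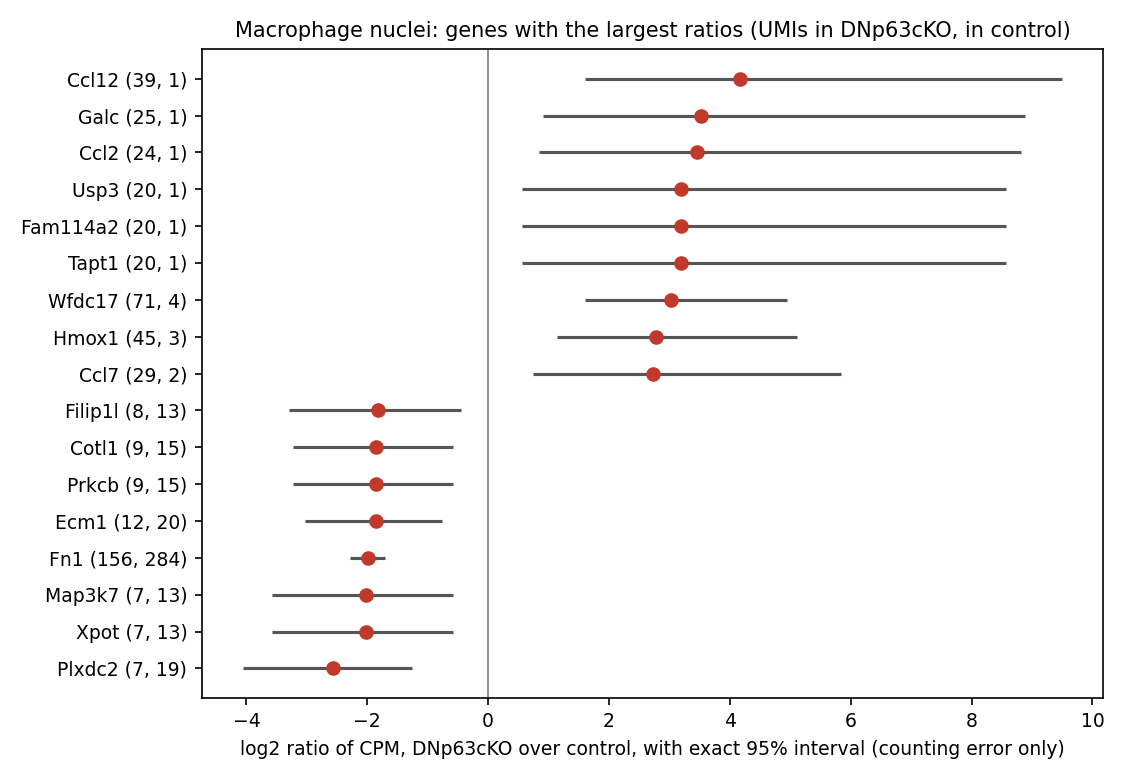
Log2 ratio of CPM without a pseudocount, DNp63cKO over control macrophage nuclei (x axis), for the 8 genes with the highest and the 8 with the lowest ratios and for Ccl7; bars are exact 95% intervals for counting error and brackets give UMIs in DNp63cKO and control. Intervals are widest where control had 1 UMI and narrowest for Fn1, with 156 and 284 UMIs.

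Among the genes with the lowest ratios Fn1 had most UMIs, and its control level rested on few nuclei. Fn1 was at 892 CPM in DNp63cKO against 3543 CPM in control macrophage nuclei (156 UMIs in 32 nuclei and 284 UMIs in 15), a ratio of 0.252 (0.206 to 0.307). A single control nucleus held 171 of the 284 UMIs, and 247 lay in the 4 control nuclei of the small set. Without the nucleus with most Fn1 in each library the levels were 701 and 1473 CPM, and without the 10 nuclei of the small set the log2 ratio was -0.09. Plxdc2 (7 and 19 UMIs in DNp63cKO and control), Map3k7 (7 and 13), Xpot (7 and 13), Ecm1 (12 and 20), Cotl1 (9 and 15), Prkcb (9 and 15) and Filip1l (8 and 13) were scarce. Plxdc2 was spread over 5 DNp63cKO and 10 control nuclei, and Prkcb, a kinase of leukocyte signalling, over 6 and 5. Filip1l turned to 1.04 in nuclei with 3 or fewer mesenchymal genes.

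Rule genes showed no common shift between the genotypes. Dock2 was at 97.2 CPM in DNp63cKO against 225 CPM in control (log2 ratio -1.17), Ptprc at 120 and 237 CPM (-0.95) and Adgre1 at 160 and 274 CPM (-0.76). C1qb (841 and 511 CPM, 0.71), C1qc (966 and 773 CPM, 0.32) and Mrc1 (1939 and 1572 CPM, 0.30) were somewhat higher in DNp63cKO. Cx3cr1 (91.5 and 49.9 CPM, 0.81) was higher as well, on 16 and 4 UMIs. F13a1 (761 and 686 CPM, 0.15), Csf1r (549 and 524 CPM, 0.07) and C1qa (515 and 561 CPM, -0.12) were near equal. Since these genes chose the nuclei, their ratios are a description. Itgam was at 206 CPM in DNp63cKO against 462 CPM in control (-1.15), with UMIs in 7 nuclei of each library. Of these UMIs 35 of 36 in DNp63cKO and 33 of 37 in control lay in the 10 nuclei of the small set, where Itgam was at 3027 CPM in DNp63cKO against 3203 CPM in control.

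Ligands that feed or attract macrophages were measured in the neighbouring cell classes. Csf1, the main growth factor, was at 17.5 CPM in DNp63cKO against 24.2 CPM in control in the endothelial gate, 17.2 and 13.6 CPM in the mesenchymal gate, and 7.20 and 2.13 CPM in the epithelial gate. The counting intervals of the epithelial values (4.12 to 11.7 in DNp63cKO and 1.06 to 3.82 in control) did not overlap, on 16 and 11 UMIs. Macrophage nuclei themselves had Csf1 at 51.5 CPM in DNp63cKO (23.5 to 97.7) and 49.9 CPM in control (13.6 to 128), on 9 and 4 UMIs. These levels were above those of the other gates, but their intervals overlap those of the endothelial gate (7.05 to 36.1 and 11.6 to 44.4). Il34, the other ligand of CSF1R, had counted levels at or below 2.51 CPM in every gate. Macrophage nuclei had 0 UMIs of Il34, where 3 would be 17.2 CPM in DNp63cKO and 37.4 CPM in control. The endothelial gate had 1 UMI in each library, where 3 would be 7.52 CPM in DNp63cKO and 7.25 CPM in control. Cx3cl1, the ligand of CX3CR1, had 8 UMIs in the endothelial gate of each library and was between 9.89 and 11.7 CPM in the mesenchymal and epithelial gates. Cd200, which restrains macrophages, was at 87.7 CPM in DNp63cKO against 82.2 CPM in control endothelial nuclei, above 12.5 to 16.6 CPM in the mesenchymal gate. Sirpa, the receptor for the do-not-eat-me protein CD47, was at 126 CPM in DNp63cKO against 312 CPM in control macrophage nuclei (log2 ratio -1.28), on 22 and 25 UMIs, and Cd47 was between 135 and 225 CPM in all gates.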

How the data were processed

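Nuclear RNA of 2 pools of newborn mouse ureter was measured in 1 library each. The authors deposited raw UMI counts as 2 sparse matrices of genes by barcodes, and every value was a whole number. Per the submitters' processing notes the mm10 genome was used, and the tools listed are STAR 2.7.11a with STARsolo, Seurat 4.0.5 and R 4.0.5. Which annotation was used, whether introns and strand were counted, and how barcodes were called is not given in the sources used here. Libraries held 9859451 UMIs in DNp63cKO and 16063644 in control, and macrophage nuclei 174867 and 80168, with medians of 1226 and 1285 UMIs per nucleus. This depth leaves most genes with few UMIs, and 20 UMIs in the 119 nuclei were required for a gene to be counted.

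Counts were summed per library (Python 3.11.15, numpy 2.4.6, scipy 1.17.1, pandas 2.3.3). CPM are UMIs per 1000000 UMIs of the summed nuclei, and log2 ratios add 5 CPM. With 1 library per group no test was run. Intervals are exact, Poisson for counts, Clopper-Pearson for shares and conditional binomial for ratios, and UMIs are not fully independent. The steps were tested on simulated data. The endothelial, mesenchymal and epithelial gates took nuclei with 2 or more of 3, 2 or more of 10 and 4 or more of 8 marker genes and 1 or fewer rule genes. Scrublet (scanpy 1.11.5) marked 0% of nuclei in each library by its automatic threshold and so had not worked. Doublets were left in, and the top 5% by score were removed as an alternative. Of 32589 gene IDs 32445 were found in GENCODE M21 (GRCm38), which gave coordinates. Named genes were the rule genes, the 25 highest ratios of macrophage over other nuclei seen in 10 or more nuclei, the 8 highest and lowest ratios of DNp63cKO over control among genes at least as high in macrophage as in other nuclei of the library where they are higher, up to 6 members of each of 40 gene lists with most UMIs, and cell markers at 0. Other list members, Ccl7, Clec4n, and the genes of the Fcna, Itgam and Ccl6 nuclei were named after their values were seen. The nuclei, members and lists were chosen with earlier results of these data known.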

Additional observations from a re-analysis of the deposited data

How the results depend on the processing

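The macrophage share in DNp63cKO and control was 0.929% and 0.281% with 3 or more rule genes. It was 0.978% and 0.315% among nuclei with 700 or more UMIs, thinned to 700 UMIs. Among nuclei with 2 or fewer epithelial genes it was 1.88% and 0.601%. With alternatives chosen after seeing the data it was 0.692% and 0.247% (4 or more rule genes) and 0.583% and 0.191% (3 or fewer mesenchymal genes). The DNp63cKO share was higher in each. Genes higher in macrophage nuclei, 388 in the main count, numbered 631 and 190 with minimums of 10 and 40 UMIs, 590 with free RNA subtracted, 237 with 4 or more rule genes and 128 with 3 or fewer mesenchymal genes. Genes 2-fold higher and lower in DNp63cKO, 228 and 156, numbered 755 and 581 at 10 UMIs, 39 and 25 at 40, 409 and 329 by per-nucleus means, 399 and 411 with free RNA subtracted, 360 and 65 by median-of-ratios scaling, and 58 and 24 with 3 or fewer mesenchymal genes. The lower count was 99 with a pseudocount of 20 CPM and 77 with 4 or more rule genes. Stricter minimums and smaller sets test fewer genes or sum fewer nuclei, and other causes were not tested. The red blood cell list turned from a median of 2.22 to -0.012 with 4 or more rule genes and to -0.059 with 3 or fewer mesenchymal genes. There the fibroblast list turned from 1.09 to -2.09 and Filip1l from -1.72 to 1.04. No other list median or named gene past 2-fold in the main count changed sign. The chemokine list, at 0.92 in DNp63cKO over control, was at -0.44 without the Fcna, Itgam and Ccl6 nuclei, an alternative also chosen after seeing the data. No paired analysis was possible because the labels give 1 library per group and no replicate numbers. Depth limits all calls on genes under 20 UMIs.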

Other observations

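A single control nucleus of the 119 carried mast cell RNA. It had 1024 UMIs, among them 18 of Tpsb2 and 13 of Tpsab1 (tryptases), 6 of Cpa3 (mast cell carboxypeptidase), 5 of Il1rl1 (the IL-33 receptor chain) and 6 of Kit, and it entered on 1 UMI each of Dock2 and Ptprc, with 0 of Mrc1. Of the mast cell and basophil list DNp63cKO macrophage nuclei had UMIs of Gata2 alone, which other nuclei showed as well. Genes of microglia were partly shared: Fcrls had 19 UMIs in DNp63cKO and 6 in control, P2ry12 10 and 2, and Sall1, the microglial transcription factor, 0. Of B cell genes Ighm had 8 and 3 UMIs and Bank1 11 and 5, while Cd79a, Ms4a1 and Pax5 had 0. Of neutrophil genes S100a9 had 7 and 0 UMIs and Elane, Mpo, Ltf and Camp had 0. Clec4n, the lectin receptor Dectin-2, had 18 UMIs in 9 DNp63cKO nuclei with 4 or more rule genes and 0 in control, and Marco, a scavenger receptor, 18 UMIs in 3 such nuclei and 0 in control. All 18 Marco UMIs lay in nuclei with 5 or more UMIs of Fcna, Itgam and Ccl6.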
